A study of Homo sapiens with 2 samples.

Results

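Transcripts of 8 Notch pathway genes carried listed sites of N6-methyladenosine (m6A) in HEK293T cells, at levels from 10% to 100% of reads. The 9 genes examined were the receptors NOTCH1, NOTCH2 and NOTCH3, the ligands JAG1 and JAG2, the inhibitor NUMB, the DNA-binding factor RBPJ, the coactivator MAML1 and the target HES1. They were chosen by name as a Notch set, and their sites are those that the deposited lists put under these names. Of the 9 genes 8 had at least 1 listed site, among 11406 named genes of the series, and JAG1 was not listed in either library. The 8 genes held 121 of the 72449 sites of replicate 1 and 116 of the 81554 sites of replicate 2, with 97 of the 60462 sites that both lists share. HEK293T is an established line of human embryonic kidney cells, here with the genotype WT at day 0, and all libraries received the GLORI treatment. In GLORI, unmethylated adenosine is deaminated and read as G while m6A is still read as A, so the share of A reads at a site is its methylation level. The labels describe 1 group of 2 replicates with 100 to 200 ng of poly(A) RNA in each, and no untreated or mutant samples, so the comparisons possible are between libraries, sites and genes.

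Notch receptors are single-pass membrane proteins that are cut when a ligand of the Jagged or Delta family on a neighbouring cell binds them. The released intracellular domain enters the nucleus, joins RBPJ on DNA and recruits a Mastermind-like coactivator such as MAML1, which turns on targets such as the repressor gene HES1. NUMB acts against this signal at the membrane by promoting endocytosis of the receptor. m6A is written on mRNA by a methyltransferase complex and is known to affect the stability and translation of the transcripts that carry it.

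Among the 8 genes, HES1 alone had a listed site at its annotated first nucleotide, and the sequences around the start of the 5 genes with listed sites whose only annotated start is an A are shown for that reason. Each line gives 15 bases before the start, the start itself as the capital A, and 14 bases after it, on the strand of the gene, from RefSeq on GRCh38.p14.
HES1 (chr3:194136133-194136162, plus strand): cagggcctagggatcAcacaggatccggag
NOTCH1 (chr9:136546034-136546063, minus strand): tcgactctgagcctcActagtgcctcggcc
NOTCH2 (chr1:120069648-120069677, minus strand): gcggaaggacacacgAggctgcttcgttgc
JAG2 (chr14:105168762-105168791, minus strand): ggcgagcgagctgtcAgtctcgttccgaac
NUMB (chr14:73458532-73458561, minus strand): tggcgcttggtggccActggcggccgaggt
The HES1 start, position 194136148 of chromosome 3, had a level of 40.7% in replicate 1 (59 reads) and 45.3% in replicate 2 (64 reads), with a 95% Wilson interval of 34.7 to 51.9% on the summed reads. The first transcribed adenosine of an mRNA can carry a related mark, m6Am, and the level does not say which of the marks is present. The letters CA, a C just before the start and the A itself, were searched on the gene's own strand. They are found in HES1, NOTCH1, JAG2 and NUMB and not in NOTCH2, and in 29.6% of the 35116 annotated start windows in the table. Over the series 353 of these windows had a shared site at the first base; its median level was 29.1%, and 260 of the windows (73.7%) had CA, against 66.6% of all windows that start with A. The level of HES1 was reached or exceeded in 86 of the 353. Reads over the unlisted starts are not given in the files, so nothing follows for the starts that have no entry.

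Depth limits which sites can appear, and the highest and lowest sites named for a gene are those among its shared sites by mean level. A listed site had at least 15 reads, 5 A reads and a level of 10%, and the 8 genes had 10163 reads at their listed sites in replicate 1 and 11032 in replicate 2. The median shared site of the 8 genes was read 75 times in replicate 1 and 87 times in replicate 2, against 42 and 49 over all shared sites. Between the libraries, the levels of shared sites varied no more than read sampling alone would give. The mean chi-square of the difference was 0.785 over the 97 sites of the 8 genes and 0.936 over all shared sites. Sites that passed the limits in 1 library only do not enter these values, which can lower them. The libraries were therefore counted as 1 sample. Each library's value is given, errors of a gene are counting standard errors (SE) of the mean over its shared sites, and site intervals are 95% Wilson intervals on summed reads, and both cover counting error only. The HEK293T markers PAX2, EYA1, LIN28B, NEFM and INA had listed sites, and 0 of 6 markers of other cells did.

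The 3 receptors differed widely. NOTCH1 was listed with 4 sites in replicate 1 and 3 in replicate 2, of which 2 were shared, and both were almost fully methylated. Position 136496937 of chromosome 9 (minus strand) showed A in 34 of 34 reads of replicate 1 and 18 of 19 of replicate 2, with an interval of 90.1 to 99.7%. Position 136497137 showed A in 18 of 19 and 21 of 22 reads (83.9 to 98.7%). Their mean was 96.2% ± 2.1. A further site at position 136505610, listed only in replicate 1, had 94.4% of 18 reads, position 136497164, only in replicate 2, had 95% of 20 reads, and position 136496255, only in replicate 1, had 68.4% of 19 reads. NOTCH1 was the least covered of the 8 genes, with a deposited gene coverage of 11.7 in replicate 1 and 13.5 in replicate 2. At a depth of 19 reads, the median of its replicate 1 sites, 5 A reads are a level of 26.3%, below which no site of that depth is listed.

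NOTCH2 had 33 sites in replicate 1 and 32 in replicate 2, and 27 shared. Their mean level was 48.5% in replicate 1 and 49.1% in replicate 2 (48.8% ± 0.61), and single sites ran from 11.1% to 98.8%. At position 119914981 of chromosome 1 (minus strand) 98.5% of 68 reads of replicate 1 and 99.0% of 104 of replicate 2 showed A (interval 95.9 to 99.7%). The lowest site, further 3′ at position 119914812, had 11.0% of 100 reads and 11.1% of 117 (7.55 to 15.9%). NOTCH2 thus held nearly full and weak levels at sites within a short genomic stretch. The most covered site, position 119914743, lay between them in level, at 75.9% of 170 reads and 77.9% of 190 (72.3 to 81.0%). Of the 27 sites 5 had at least 80% and 7 were under 20%. Most lay near the 3′ end: 20 fell in a stretch of 2448 nt that ends 2551 nt before the annotated end of the gene, with a mean of 52.0% ± 0.72. Upstream of it lay a group of 4 sites with a mean of 38.7% ± 1.5 and a group of 3 sites with 41.0% ± 1.6, at 12198 to 14145 nt from the end. NOTCH2 has human-specific partial copies, the NOTCH2NL genes, and the lists name NOTCH2NLB with 2 sites in replicate 1 and 1 in replicate 2, and NOTCH2NLC with 2 sites in each. Reads of near-identical copies can be hard to assign, with the authors' rule for them not given in the sources used here. All listed NOTCH2 sites lay 1442 to 17476 nt from the annotated 3′ end of a gene of 158110 nt. Whether the partial copies include that stretch was not examined here.

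NOTCH3 had 8 sites in replicate 1, 6 in replicate 2 and 5 shared, with a mean of 54.4% ± 1.4 (55.4% in replicate 1, 53.4% in replicate 2). On chromosome 19 (minus strand) position 15165951 had 36.2% in replicate 1 and 36.4% in replicate 2, and position 15165933, 18 nt further 3′, had 13.2% and 10.1%. Position 15161320 had 96.7% and 94.7% (90.7 to 98.0%). Position 15161311 had 76.6% and 80.7%, and position 15160834 had 54.3% and 44.9%. Of the 5 shared sites, the 2 farther from the 3′ end were the lowest in both libraries, with a mean of 24.0% ± 2.4, against 74.6% ± 1.7 over the other 3. Sites listed in a single library nearer the end were low as well, with 31.2% at position 15161583 and 35.1% at position 15161572 in replicate 1, and 20.4% at position 15161030 in replicate 2. A lone site at 38 reads and 13.2% in replicate 1 lay 20193 nt from the end, the farthest of any listed site of the 8 genes.

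**Figure D1:**
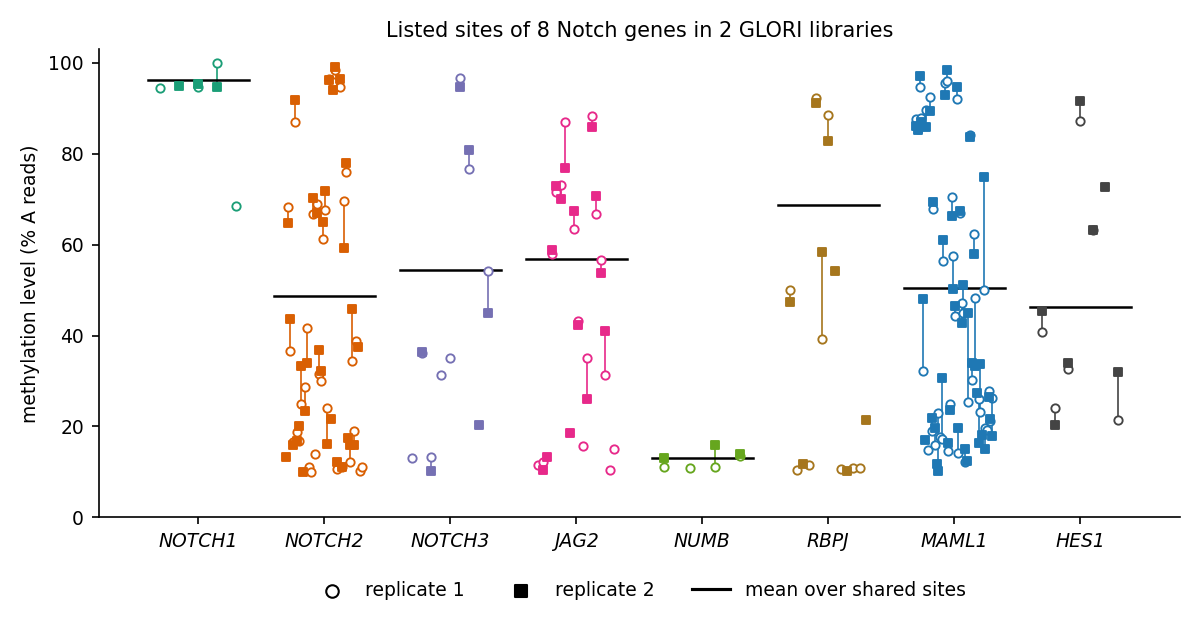
Methylation level (y axis, % of reads showing A) of every listed site of the 8 Notch genes (x axis), with sites of a gene ordered 5′ to 3′ from left to right; open circles are replicate 1, filled squares replicate 2, a vertical line joins a shared site, and the black bar is the mean over shared sites. The 2 shared NOTCH1 sites lie at 94.7% or more, the 3 of NUMB at 16% or less, and NOTCH2, NOTCH3, JAG2, MAML1 and HES1 span low and high levels within 1 gene.

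Of the ligands, JAG1, which activates Notch receptors in many tissues, had no listed site; no site of any other name lay inside its annotated body (chromosome 20, 10637684 to 10673999) either. This gives no bound on its methylation. JAG2, its paralogue, had 16 sites in replicate 1, 14 in replicate 2 and 12 shared, with means of 57.2% and 56.4% (56.8% ± 1.2). The highest was position 105142224 of chromosome 14 (minus strand) with 88.3% of 60 reads and 85.9% of 78 (80.3 to 91.6%). The lowest and most covered was position 105145783, with 12.2% of 98 reads and 10.4% of 115 (7.69 to 16.2%). Shared JAG2 sites were gathered in 1 place: 11 of the 12 lay within 808 nt, at 1172 to 1980 nt from the annotated 3′ end, with a mean of 60.9% ± 1.3 and a lowest level of 30.5%, while the lowest shared site lay at 4788 nt. Next to it, position 105145777 was listed in replicate 2 only, with 13.3% of 128 reads.

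NUMB was listed with weak sites only. It had 4 sites in replicate 1, 3 in replicate 2 and 3 shared. Position 73284263 of chromosome 14 (minus strand) had 11.0% of 91 reads in replicate 1 and 13% of 123 in replicate 2 (8.43 to 17.2%). Position 73276853 had 11.1% of 63 and 16% of 75 (8.99 to 20.5%), and position 73276609 had 13.6% of 59 and 14% of 57 (8.67 to 21.2%). The mean was 13.1% ± 1.6 (11.9% in replicate 1, 14.3% in replicate 2), close to the 10% at which the lists start, and it was not limited by depth at 57 to 123 reads. Unconverted adenosine, 1 minus the deposited conversion fraction of the gene, was 1.80% and 1.73% for NUMB, so all 3 sites lay well above it. NUMB had the lowest mean level of the 8 genes in both libraries.

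RBPJ, the factor through which Notch receptors act in the nucleus, had 9 sites in replicate 1 and 8 in replicate 2, but 4 in common. Position 26430783 of chromosome 4 (plus strand) had 50% of 138 reads and 47.4% of 156 (43.0 to 54.3%). Position 26431027 had 92.3% of 39 and 91.2% of 57 (84.4 to 95.7%), and position 26431037, further 3′, had 88.5% of 26 and 82.8% of 29 (73.8 to 92.4%). Between them position 26431033 had 39.3% of 28 and 58.3% of 36 (38.1 to 61.9%). The mean over the 4 was 68.7% ± 2.2 (67.5% and 69.9%). That value depended on the sites counted. Over all sites that a library listed, shared or not, it was 36.0% in replicate 1 and 47.1% in replicate 2. Of the 9 sites listed in 1 library only, 7 had 10.1 to 11.7% and the others 21.4% and 54.2%. RBPJ has processed pseudogenes, and none had a listed site under its own name. The same limit applies to reads that fit RBPJ and these copies alike.

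MAML1, the Mastermind-like coactivator that bridges the Notch and RBPJ complex to histone acetyltransferases, had the most listed sites of the set. It had 41 sites in replicate 1, 43 in replicate 2 and 38 shared, which put it at rank 42 in number of shared sites among the 9521 genes that had any. The mean was 49.9% in replicate 1 and 51.0% in replicate 2 (50.4% ± 0.57), with 10 sites at 80% or more and 6 under 20%. The highest, position 179766581 of chromosome 5 (plus strand), had 96.1% of 51 reads and 98.4% of 63 (92.5 to 99.1%). The lowest, position 179774363, had 12.2% of 74 and 15.1% of 86 (9.26 to 19.9%). The most covered, position 179765472, had 87.6% of 242 and 86.1% of 295 (83.7 to 89.4%). MAML1 sites fell in 2 regions separated in genomic distance, which includes introns. The more 5′ of them starts 32650 nt into a gene of 44462 nt. The 5′ region held 16 sites within 1202 nt at a mean of 61.7% ± 0.75 (61% in replicate 1, 62.5% in replicate 2), and the 3′ region held 21 sites within 2958 nt at 43.0% ± 0.84 (42.6% and 43.5%). Sites of at least 80% numbered 8 of 16 in the 5′ region and 2 of 21 in the 3′ region. The remaining site lay between the regions, at 24.4%. Unconverted adenosine was highest in MAML1 among the 8 genes, at 4.25% in replicate 1 and 3.92% in replicate 2, below each listed level. In addition, sites with no gene name lay inside the MAML1 body on its strand, 2 in replicate 1 and 1 in replicate 2, at 16.1 to 29.2%.

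HES1, which encodes a basic helix-loop-helix repressor and is a direct target of the Notch and RBPJ complex, was the most deeply covered of the set, with a gene coverage of 166 in replicate 1 and 178 in replicate 2. It had 6 sites in replicate 1, 7 in replicate 2 and 6 shared, with a mean of 46.3% ± 1.3 (44.9% and 47.8%). Position 194138290 of chromosome 3 (plus strand) was both the highest and the most covered, with 87.1% of 435 reads and 91.7% of 579 (87.7 to 91.5%). Its neighbour 13 nt further 3′, position 194138303, had 63.2% in each library (182 and 209 reads). The lowest was position 194138205 with 24.2% of 236 reads and 20.4% of 279 (18.8 to 25.9%). Besides the site at the first nucleotide shown above, the 5 shared sites of HES1 lay within 201 nt, at 326 to 527 nt from the 3′ end. Their mean was 47.0% ± 1.3, so leaving out the first nucleotide moved the gene's mean by less than its counting SE.

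**Figure D2:**
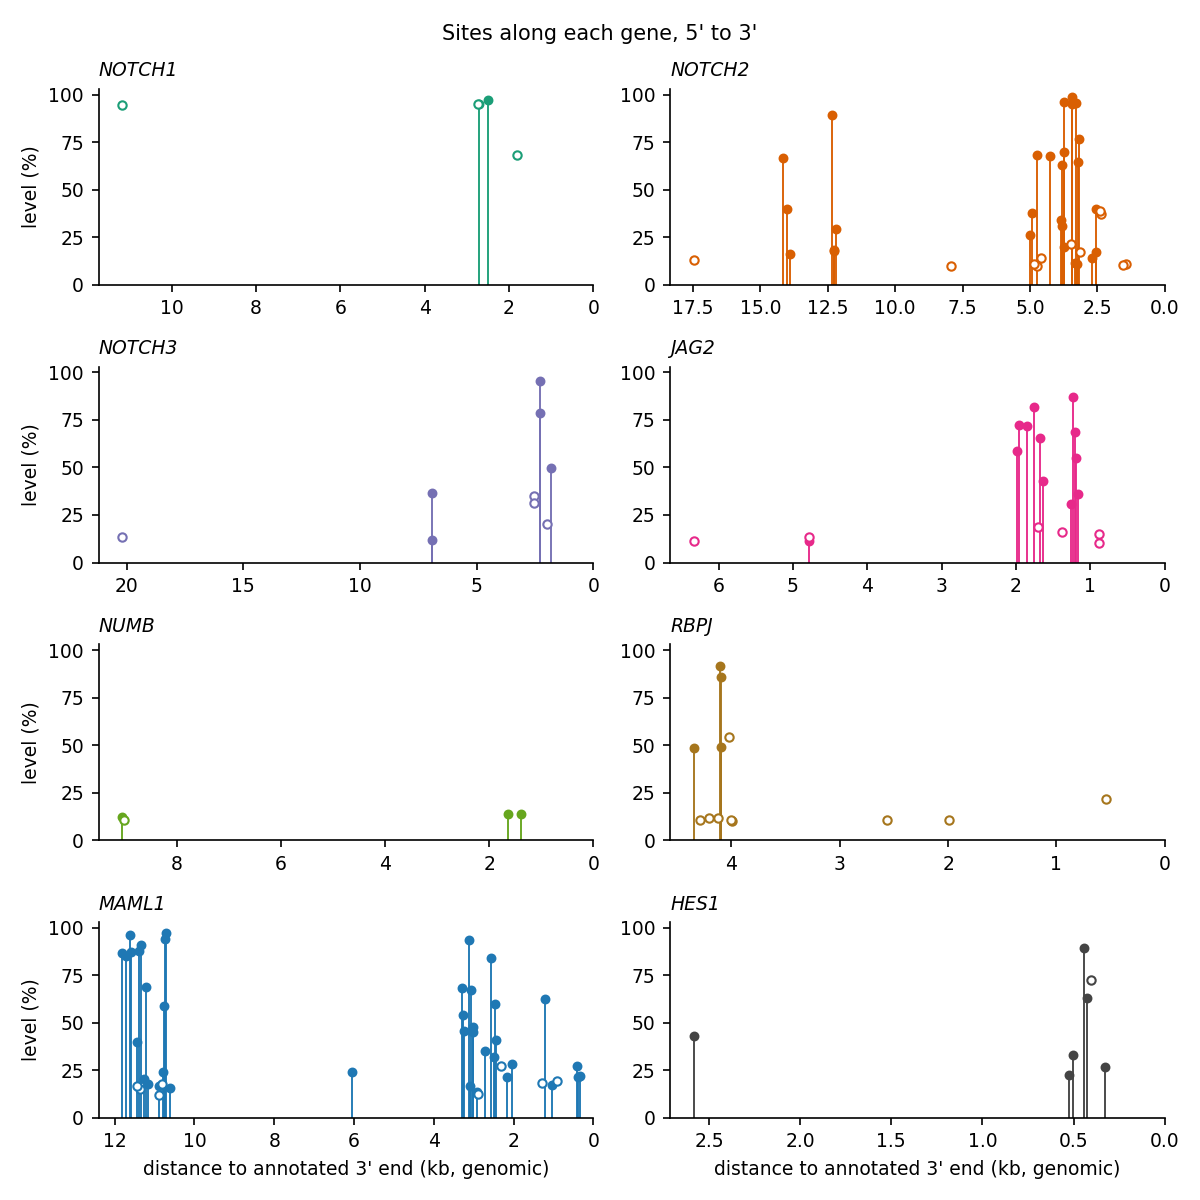
Methylation level (y axis, %) against genomic distance to the annotated 3′ end of the gene in kb (x axis, 5′ at left), in a panel for each of the 8 genes; filled points with stems are shared sites at their mean level and open points are sites listed in 1 library. MAML1 shows its 2 regions, 11 of 12 shared JAG2 sites lie within 2 kb of the end, and HES1 has a single site at its start.

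In mean level the genes ran NOTCH1 (96.2%), RBPJ (68.7%), JAG2 (56.8%), NOTCH3 (54.4%), MAML1 (50.4%), NOTCH2 (48.8%), HES1 (46.3%) and NUMB (13.1%). The gaps between NOTCH1 and RBPJ (27.5 points, 95% counting interval 21.5 to 33.5), RBPJ and JAG2 (11.9, 7.02 to 16.9), NOTCH3 and MAML1 (3.96, 0.986 to 6.93) and HES1 and NUMB (33.2, 29.1 to 37.3) exceeded counting error. Those between JAG2 and NOTCH3 (2.42, -1.23 to 6.06), MAML1 and NOTCH2 (1.62, -0.0104 to 3.25) and NOTCH2 and HES1 (2.49, -0.307 to 5.29) did not. The order in between NOTCH1 and NUMB depended on the sites counted. RBPJ lay below JAG2 over all sites of replicate 1 (36.0% against 46.2%), over those of replicate 2 (47.1% against 50.6%), over sites in either list (32.8% against 42.6%) and over its single shared site with at least 50 reads (48.7% against 51.4%). NOTCH3 lay below MAML1 with read weights (51.9% against 52.8%), over all sites of replicate 1 (44.6% against 47.5%) and over sites in either list (41.3% against 44.7%). HES1 was exceeded only by NOTCH1 over all sites of replicate 2 (HES1 51.3%, JAG2 50.6%) and over sites in either list (HES1 50.1%, MAML1 44.7%). With read weights HES1 (56.4%) was exceeded only by NOTCH1 and RBPJ (60.9%). With levels of at least 20% HES1 was the lowest of the 7 genes left (46.3%). Over its shared sites a gene had an SD of 33.4 points in NOTCH3, 30.3 in NOTCH2, 28.9 in MAML1, 25.6 in HES1, 23.2 in RBPJ and 22.6 in JAG2. In NOTCH1 it was 1.61 over 2 shared sites, and in NUMB 0.976 over 3. So few sites do not show even methylation of a gene, and NOTCH1 also had a site at 68.4% in replicate 1 only.

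Set beside the series, the 8 genes had a median of 5.5 shared sites against 4 over all 9521 genes, and a median of the gene means of 52.4% against 46.6%. Over sites, 23 of the 97 (23.7%) had at least 80%, against 19.8% of all shared sites, and 18 (18.6%) were under 20%, against 15.2%. MAML1 and NOTCH2 held 65 of the 97 sites. Listed levels moved with coverage, with a median gene level of 58.6% in the decile of lowest coverage and 31.0% in that of highest, so each gene was also set beside the genes in its own decile. In 7 of the 8 the mean level was above the median of that decile, and NUMB was the exception: 1.58% of the 952 genes of its decile had a lower mean, where the median was 44.3%. NOTCH1 exceeded 97.7% of its decile, the lowest in coverage, and RBPJ exceeded 95% of its own. In number of sites MAML1 exceeded 99.1%, NOTCH2 97.4%, JAG2 80.6% and HES1 77.7% of their deciles. NOTCH3 (5 sites) and NOTCH1 (2 sites) were at the median, and RBPJ (4 against 5) and NUMB (3 against 5) below it. These shares are descriptions, and no test was made over the set.

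**Figure D3:**
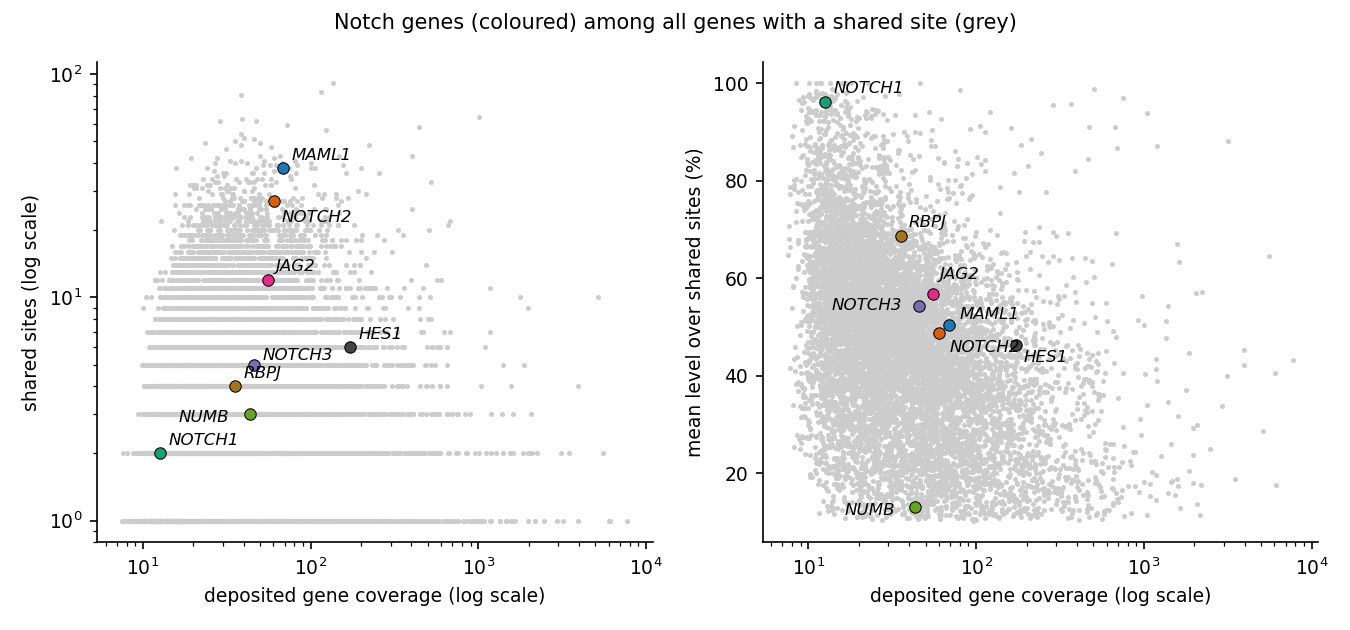
Number of shared sites (left, log scale) and mean level over shared sites in % (right) against deposited gene coverage (x axes, log scale) for all 9521 genes with a shared site (grey) and the 8 Notch genes (coloured). MAML1 and NOTCH2 stand high in number of sites with 38 and 27, and NOTCH1 and NUMB lie at opposite ends in level with 96.2% and 13.1%.

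By nearness in number of sites, mean level and coverage among the 4015 genes with at least 5 shared sites, MAML1 was most like TUBGCP6 (38 sites, 49.6% ± 0.53) and GEMIN4 (39 sites, 49.7% ± 0.57). NOTCH2 was most like NUP153 (26 sites, 48.0% ± 0.85) and SETD1A (27 sites, 47.9% ± 0.79). JAG2 was most like GNA11 (12 sites, 56.8% ± 1.3) and NCBP2AS2 (12 sites, 55.3% ± 1.3). With 2 libraries of 1 group there is no pattern across samples to match.

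Neighbouring sites asked whether adenosines a few bases apart in 1 gene carry the same level. The 8 genes had 24 pairs of neighbouring shared sites at most 30 nt apart, and 20 of them differed (Fisher's exact test on summed reads, two-sided, Benjamini-Hochberg over 10496 such pairs of the series), against 67.9% of all pairs. At most 10 nt apart, 7 of 9 pairs differed, against 67.5% of all such pairs. All 20 differed in the same direction in both libraries, as did 7114 of the 7123 called pairs of the series. Pairs were called on the summed reads, which favours a shared direction. The median absolute difference was 20.9 points, against 23.9 over all pairs. Shared sites of the 8 genes had median reads of 75 and 87 in the 2 libraries, against 42 and 49 over all. Whether this depth raised the share of pairs that differed was not tested. A read can cover both sites of a pair, so the reads behind the 2 levels are not separate, and the test compares sites in these libraries. Without the replicate sum, 15 of the 24 pairs had an unadjusted p under 0.05 in each library alone (Fisher's exact test). The same share over the series is not given here.

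The sharpest contrasts were in NOTCH2. Position 119914884 had 10.7% in replicate 1 and 12.3% in replicate 2, while position 119914860, 24 nt further 3′, had 94.7% and 96.4% (5′ minus 3′ difference -84.0 points, Fisher's exact test, adjusted p = 2.4e-86). NOTCH2 positions 119915282, 119915277 and 119915273, 5 and 4 nt apart, had mean levels of 69.8%, 20.1% and 96.3% from 5′ to 3′, a low site between higher ones in both libraries (adjusted p = 5.4e-08 and 2.1e-17 by Fisher's exact test). Position 119915360 had 31.1% and position 119915353, 7 nt further 3′, 63.1% (adjusted p = 7.1e-06, Fisher's exact test). At positions 119914109 and 119914104, 5 nt apart, the levels were 40.1% and 17.5% (adjusted p = 4.6e-06, Fisher's exact test). Positions 119923828 and 119923825, 3 nt apart, did not differ detectably, at 17.7% and 18.4% (adjusted p = 0.85, Fisher's exact test).

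RBPJ showed the same shape as the NOTCH2 triplet: positions 26431027, 26431033 and 26431037 had 91.8%, 48.8% and 85.6% at steps of 6 and 4 nt, and both steps passed the test (adjusted p = 1.2e-08 and 8.9e-05, Fisher's exact test). In NOTCH3, position 15161320 had 95.7% and position 15161311, 9 nt further 3′, had 78.6% (difference 17.1 points, adjusted p = 6.4e-05, Fisher's exact test). In MAML1, positions 179774269 and 179774276, 7 nt apart, had 44.9% and 48.0% and did not differ detectably (adjusted p = 0.60, Fisher's exact test). MAML1 also held a steep contrast at a wider spacing, with 16.9% at position 179774195 and 67.2% at position 179774225, 30 nt further 3′. In HES1 the pair 13 nt apart, at 89.4% and 63.2%, differed by 26.2 points (adjusted p = 1.0e-27, Fisher's exact test).

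**Figure D4:**
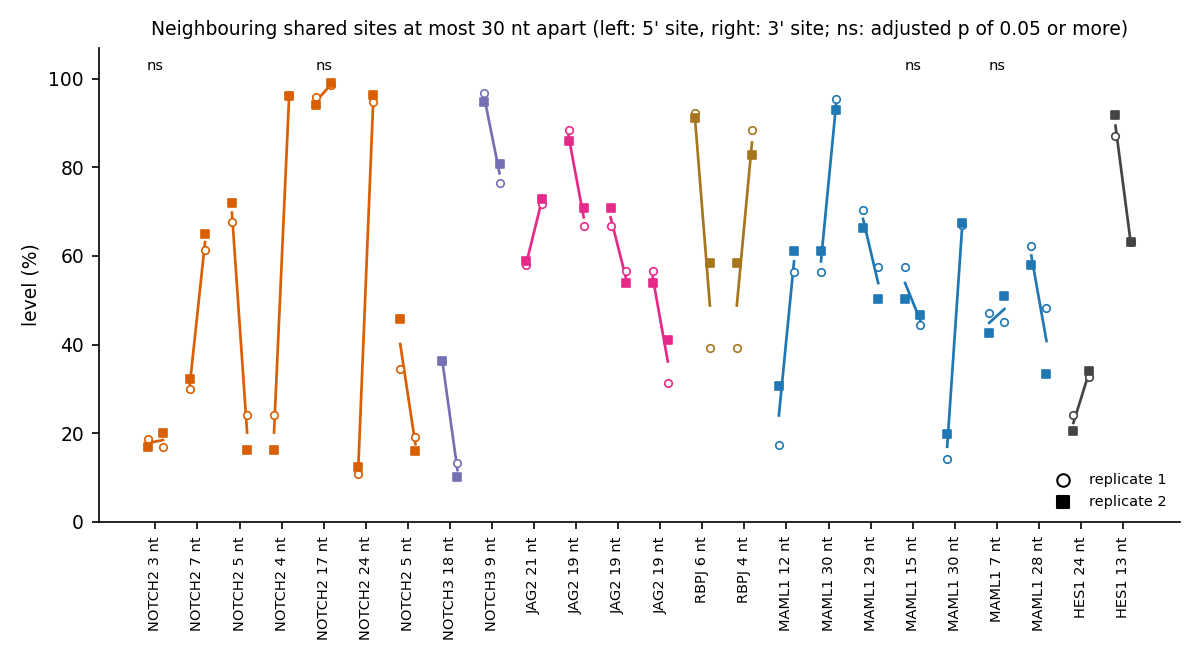
Levels (y axis, %) of the 24 pairs of neighbouring shared sites at most 30 nt apart, labelled by gene and distance (x axis), with the 5′ site at the left and the 3′ site at the right of each pair; open circles are replicate 1, filled squares replicate 2, the line joins the means, and ns marks the 4 pairs with an adjusted p of 0.05 or more. The steepest are in NOTCH2, with 5′ minus 3′ differences of -84.0 and -76.2 points.

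Along the genes, 71 of the 97 shared sites (73.2%, Wilson interval 63.6 to 81.0%) were found in the 3′-most 10% of their gene, against 44.1% of sites in protein-coding genes. The interval takes each site as a separate draw and is too narrow for sites grouped in 8 genes. NOTCH2 and MAML1 held 27 and 21 of the 71. Within 5 kb of the 3′ end lay 70 of the 97 (72.2%), against 61.2%, while 8 (8.25%) lay within 1 kb, against 21.6%. Of these 8 sites 5 were in HES1 and 3 in MAML1. In NOTCH2 and RBPJ all 27 and 4 shared sites were in the last 10% of genes of 158110 and 329683 nt, whereas none of the 6 HES1 sites was in the last 10% of its 2585 nt. The last 10% therefore measures gene length as well as place. Distances are genomic and include introns, since transcript models were not used here, and exon, coding or UTR positions are not given.

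Between replicates, 0 of the 97 sites differed (Fisher's exact test, two-sided, Benjamini-Hochberg over 60462 shared sites, smallest adjusted p = 1), against 0% of all shared sites. Unadjusted, 4 of the 97 (4.12%) had a p under 0.05, against 3.06% of all, and a chi-square test scaled by its mean over all sites gave 0 adjusted and 4 unadjusted. The smallest unadjusted p, 0.0161 by Fisher's exact test, was that of MAML1 position 179774560, where replicate 2 was higher by 19.6 points. The deeply read HES1 position 194138290 had p = 0.0211 by the same exact test, with replicate 2 higher by 4.58 points. The largest difference, 25 points, was at MAML1 position 179776060, with 50% of 22 reads in replicate 1 and 75% of 24 in replicate 2. The level was higher in replicate 2 at 52 sites and in replicate 1 at 45.

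**Figure D5:**
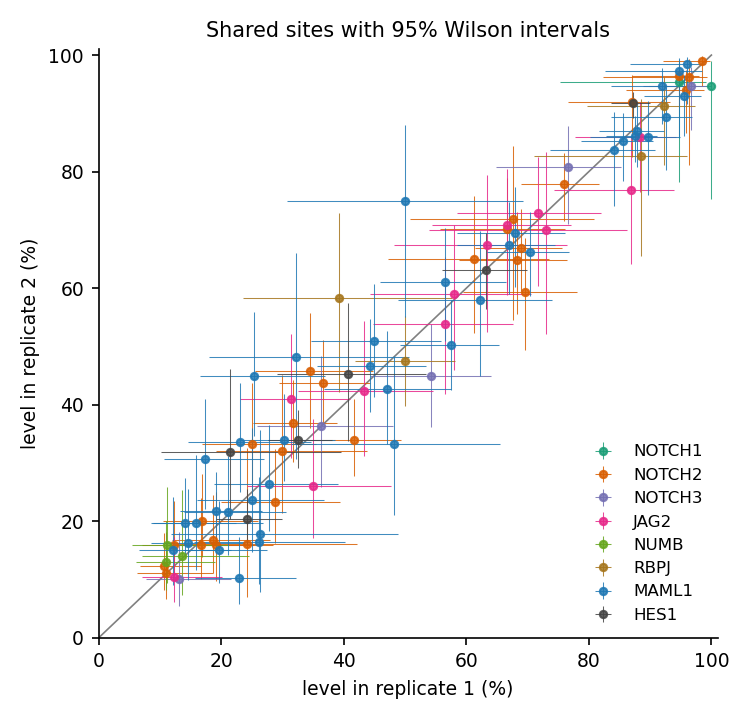
Level of each of the 97 shared sites of the 8 Notch genes in replicate 1 (x axis, %) and replicate 2 (y axis, %), coloured by gene, with 95% Wilson intervals as bars and the line of equal levels in grey. Sites follow the line, the farthest from it being the MAML1 site at 50% and 75%.

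Listing differed between the libraries. Levels were compared only at sites listed in both, so the stability of listing and of level cannot be ranked. Replicate 2 listed 97 of the 121 replicate 1 sites of the 8 genes (80.2%, Wilson interval 72.2 to 86.3%), against 83.5% of all replicate 1 sites. Replicate 1 listed 97 of the 116 replicate 2 sites (83.6%, 75.8 to 89.3%), against 74.1%. Both intervals take each site as a separate draw, though the sites are grouped in 8 genes. Of the 24 sites that replicate 2 lacked, 19 were under 20%, with a median of 12.3%. Of the 19 that replicate 1 lacked, 11 were under 20%, with a median of 18.2%. The same values for sites listed once over the series are not given here, so these are not read as a trait of the 8 genes. Among the genes, MAML1 shared 38 of 46 sites in either list, NOTCH2 27 of 38, JAG2 12 of 18 and HES1 6 of 7. RBPJ shared 4 of 13, NOTCH3 5 of 9, NOTCH1 2 of 5 and NUMB 3 of 4. Sharing per gene over the series is not given here. With levels of at least 20%, the shares for the 8 genes were 94.0% of replicate 1 sites and 90.6% of replicate 2 sites. The series shares at that cutoff are not given here, and those above are for lists without it.

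Of 64 other genes of the Notch pathway, 45 had a shared site, 421 sites in all. Their median was 6 sites and a mean level of 48.2%, and 0 of these sites differed between replicates after adjustment. Among coactivators 4 of 7 had shared sites: the acetyltransferase genes EP300 and CREBBP had 36 at 56.4% ± 0.72 and 24 at 68.7% ± 1.1. The MAML1 paralogues differed from it in listing, since MAML2 had no listed site and MAML3 had 1, in replicate 1 only. Among corepressors 11 of 13 had shared sites, SPEN with 91 at 47.2% ± 0.32 and TLE3 with 19 at 47.3% ± 0.79. Of the targets 8 of 9 had shared sites, with 18 in NRARP (49.4% ± 0.90), a feedback inhibitor, and 14 in HEY1 (43.6% ± 0.75), a relative of HES1.

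Enzymes that process the receptor had shared sites in 7 of 9 genes. FURIN, the protease that cuts the receptor during its maturation, had 12 at 55.6% ± 1.1, and ADAM17 and the γ-secretase subunit gene APH1A had 8 each, at 50% ± 2.2 and 26.5% ± 0.68. Of the glycosylation genes 3 of 5 did, with 14 sites in POFUT1 (43.9% ± 0.81), which adds O-fucose to Notch, and 6 in RFNG (33.6% ± 1.5). Of the other ligands 3 of 6 did, with 7 sites each in DLL1 (61.1% ± 2.2) and DLK2 (39.3% ± 2.5). Of the endocytosis and ubiquitin ligase genes 9 of 14 did, with 9 sites in NUMBL (49.8% ± 1.5) and 8 in NEURL4 (48.2% ± 1.9). NUMBL is the paralogue of NUMB, whose mean level over its shared sites was 13.1% ± 1.6. The fourth receptor gene, NOTCH4, had no listed site.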

How the data were processed

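The authors deposited 1 list of called sites per replicate. Per the file headers, these hold counts of reads showing A or G and of reads showing A at each site, their ratio as a fraction, a conversion fraction and a coverage signal per gene, together with raw and adjusted p-value columns. Recomputing the ratio from the read counts gave the deposited fraction within 5e-06. Per the submitters' processing notes, Trim Galore 0.6.6, STAR, Bowtie, SAMtools and GRCh38 were used, with roles, site caller and annotation not given in the sources used here. Sites were matched by chromosome, position, strand and name. Tests and Wilson intervals were computed with scipy 1.17.1 over the whole lists and checked on simulated reads. Gene ends and starts came from RefSeq (GRCh38.p14), in which all 9 genes were found. The planned consensus context and transcript classes were not computed, since sequence away from annotated starts and transcript models were not used here; distance to the gene's end replaced the classes. Whether the replicates came from separate cultures is not stated, so differences between them may be technical. The members, lists and tests were chosen with earlier results of these data known. For each gene the highest, lowest and most covered shared sites are named, and all where there are 5 or fewer. The splitting of sites into regions at gaps over 1000 nt, the equally spaced JAG2 sites the pairs named beyond 10 nt, MAML2 and MAML3 were chosen after their values were seen. Of the HEK293T markers, 1 is not reported here.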

Additional observations from a re-analysis of the deposited data

How the results depend on the processing

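With sites of at least 30 or 50 reads, or the scaled chi-square test, 0 sites of the 8 genes differed between replicates, as with all sites. With levels of at least 20% the median gene level was 62.7% over 7 genes, against 52.4% for 8, since NUMB had no site left, 13 of 17 close pairs differed against 20 of 24, and the shares listed in the other library were 94.0% and 90.6%, against 80.2% and 83.6%. At most 10 nt apart, 7 of 9 pairs differed, against 67.5% of all such pairs. With 1 replicate left out, the median gene level was 44.7 to 47.5%, the median number of sites 7.5 to 8.5, the number of genes above the median of their decile in sites 5 to 7, in level 6 to 7, and the close pairs that differed 18 to 19, of 30 to 33. With sites listed in either replicate, an alternative chosen after seeing the data, these were 41.9%, 11 sites, 7 genes in sites and 6 in level. For the 20% cutoff and for 1 replicate left out, the same counts of pairs over the series are not given here. The series shares of listing at that cutoff are not given either, so these settings do not set the 8 genes apart from the series. The share within 1 kb of the 3′ end, 8.25%, stands below the 21.6% of the series, while the 73.2% in the last 10% of the gene stands above its 44.1%, so this comparison turns with the window. Of 69 mean levels of single genes under an alternative, 36 stayed within the 95% counting interval and 33 moved further. The 36 include alternatives that left most means untouched. Counting only sites on the annotated strand changed no mean, and leaving out the first nucleotide changed that of HES1 alone. Gaps between neighbours in the order of gene levels did turn. RBPJ was below JAG2 without replicate 1, without replicate 2, at 50 reads and over sites in either list. NOTCH3 was below MAML1 without replicate 2, with read weights and over sites in either list. HES1 was above NOTCH2 at 30 and 50 reads, with read weights, with 1 replicate left out and over sites in either list. At 50 reads and with levels of at least 20% NOTCH3 was above JAG2, and at that level NOTCH2 was above MAML1. NOTCH1 stayed highest and NUMB lowest wherever they had sites. The alternatives on the DRACH consensus and on a second transcript choice were not run, since sequence away from annotated starts and transcript models were not used here. No paired analysis was possible because the labels give 1 group. NOTCH1, with 19 to 34 reads at its shared sites, had no shared site left at 30 or 50 reads.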

Other observations

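In JAG2, 4 sites stand at equal spacing, a pattern noticed in the data. Positions 105142224, 105142205, 105142186 and 105142167 of chromosome 14 (minus strand) are each 19 nt apart, and their mean levels from 5′ to 3′ were 87.1%, 68.7%, 55.2% and 36.2%. In replicate 1 the levels were 88.3%, 66.7%, 56.5% and 31.3%, and in replicate 2 they were 85.9%, 70.8%, 53.8% and 41.0%, so each library showed the same order. All 3 steps passed Fisher's exact test with Benjamini-Hochberg adjustment over the pairs of the series (adjusted p = 6.8e-04, 0.045 and 0.0015). Over the series 8 runs of at least 4 shared sites had equal spacing of at most 30 nt, in 7 genes. The sequence between these sites was not analysed here.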
